A study of Mus musculus with 12 samples.

Results

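A set of 10 genes around ATF1 was described in 12 mouse RNA libraries: Atf1, its close relatives Creb1 and Crem, the more distant bZIP factor Creb5, the CREB-regulated coactivators Crtc1, Crtc2 and Crtc3, the acetyltransferases Crebbp (CBP) and Ep300 (p300), and Cited2. They are 10 of the 55536 genes in the deposited count table and were found by symbol. The family was chosen by name as the DNA-binding family of the EWSR1-ATF1 fusion and its coactivators, whereas Cited2 was also selected on its difference between the tumour genotypes in these libraries, so its values are given as a description without a test. The study set tumours with EWSR1-ATF1 expressed from the Rosa26 locus beside tumours with a translocation between mouse Ewsr1 and Atf1.

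The translocation tumours (n = 5) carried HprtCre, Ewsr1-loxP and Atf1-loxP, that is, Cre from Hprt plus loxP sites in each of the partner genes. The Rosa26 tumours (n = 6) carried Rosa26-LSL-EWSR1-ATF1, a fusion transgene behind a loxP-flanked stop, and their label names no Cre driver. A single library came from skeletal muscle labelled WT. No tumour was exposed to a drug; each arose by genetic induction and was frozen at morbidity from the primary tumour. The labels name no ages, no pooling and no cell of recombination. The titles of translocation tumours 2 and 5 share a leading number, although their sex-linked counts differ, and those of Rosa26 tumours 5 and 6 are consecutive numbers. The muscle title shares its number with that of translocation tumour 1, but their genotype labels differ. The labels do not say if both came from a single animal. Whether tumours came from separate animals is not stated, and the p-values therefore reflect only how these libraries vary, which may in part be technical. Tumours are numbered 1 to 5 and 1 to 6 in sample order.

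CREB1, CREM and ATF1 form dimers on cAMP response elements, and phosphorylation by protein kinase A lets CREB1 recruit CBP and p300. CRTC proteins enter the nucleus when dephosphorylated and bind the bZIP domain of these factors. EWSR1-ATF1 drives clear cell sarcoma and joins part of EWSR1 to the DNA-binding end of ATF1, so that target genes no longer depend on phosphorylation. CITED2 binds the CH1 domain of CBP and p300 in competition with HIF1A and also serves as a coactivator of AP-2 factors.

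Total counts were 2.96 to 21.2 M in the translocation tumours, 6.82 to 21.5 M in the Rosa26 tumours and 25.04 M in the muscle. Ribosomal sequence reached 37.8% of translocation tumour 2 and 30% of Rosa26 tumour 4, 1.35% to 7.38% of the other tumours and 0.758% of the muscle. By Xist and Y-linked counts, 4 translocation tumours were female and 1 (tumour 5) male, while Rosa26 tumours 1 and 4 (2 libraries) were female and the other 4 male. Of the melanocyte genes that mark clear cell sarcoma, Mlana had 0 counts in all tumours, Sox10 had 8 counts over the translocation and 23 over the Rosa26 tumours, and Mitf ranged from 8.88 to 180 CPM and from 10.8 to 32.7 CPM. Dct, a melanin-synthesis gene, ranged from 0 to 332 CPM in the translocation tumours and from 0 to 27.7 CPM in the Rosa26 tumours, and Pmel had 129 and 201 counts over the groups. The 13 skeletal muscle markers were 9.25% of Rosa26 tumour 1, no more than 0.521% of any translocation tumour and 21.3% of the muscle library. The 6 fibroblast markers took 0.0209% to 2.56% in the translocation tumours and 0.637% to 8.25% in the Rosa26 tumours, highest in Rosa26 tumour 4. These are bulk samples, in which fewer cells of a type and less RNA per cell cannot be told apart.

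RefSeq windows around the transcription start, 250 bases before to 50 after it on GRCm38.p6, were at hand for 8 of the 10 members as 9 windows. Crem and Crtc2 had no entry. The 150 bases before the annotated gene start are printed for Atf1, Cited2 and Creb5. These were the + strand members with a window that held all of these bases before the RefSeq start. Atf1 was also the member that passed the test between genotypes, and Cited2 and Creb5 had the largest differences. Capitals mark the cAMP response element TGACGTCA, its short form TGACG, and the ACGTG core bound by HIF and other factors, searched on both strands, with neighbouring matches run together.
Atf1 (chr15:100227669-100227818, + strand): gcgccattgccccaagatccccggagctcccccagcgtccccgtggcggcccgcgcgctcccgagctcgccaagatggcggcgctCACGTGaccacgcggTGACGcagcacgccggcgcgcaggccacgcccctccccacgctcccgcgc
Cited2 (chr10:17723068-17723217, + strand): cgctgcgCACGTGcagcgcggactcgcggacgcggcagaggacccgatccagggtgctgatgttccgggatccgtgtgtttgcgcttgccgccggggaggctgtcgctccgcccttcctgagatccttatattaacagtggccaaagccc
Creb5 (chr6:53287120-53287269, + strand): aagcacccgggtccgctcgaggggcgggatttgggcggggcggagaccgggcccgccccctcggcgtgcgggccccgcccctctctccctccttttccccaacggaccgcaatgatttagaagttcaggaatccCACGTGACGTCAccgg
The Creb5 stretch held the palindrome TGACGTCA, which began 45 bases before the RefSeq start and overlapped ACGTG on its 5′ side. A second Creb5 window, at 53573124 to 53573423, held none of these motifs. Of all 32851 windows, 1.79% held TGACGTCA. The Atf1 stretch held TGACG 90 bases before the start and ACGTG on both strands beside it. The Cited2 window held ACGTG on both strands and no TGACG. Of the 9 windows, 2 held TGACG on either strand and 4 held ACGTG, against 20.8% and 19.6% of all windows. A match describes these letters and is no evidence of binding.

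Atf1 lies on chromosome 15 (100227819 to 100261244, mm10, + strand; ENSMUSG00000023027). Its levels in translocation tumours 1 to 5 were 50.4, 73.3, 42.1, 37.0 and 64.4 CPM (counts scaled to library size, with TMM factors over the 11 tumours). In Rosa26 tumours 1 to 6 they were 25.99, 21.9, 21.3, 26.1, 27.3 and 21.5 CPM. Every translocation tumour lay above every Rosa26 tumour, and the Rosa26 tumours were close together (24.01 ± 2.74 CPM, SD, n = 6) while the translocation tumours spread more (53.4 ± 15.2 CPM, SD, n = 5). The rise in Atf1, translocation over Rosa26, was 1.15 ± 0.22 on the log2 scale (SE; edgeR's quasi-likelihood test, Benjamini-Hochberg adjusted p = 0.0274). It was the only 1 of the 9 members other than Cited2 past adjusted p 0.05, where 2.7% of the 17021 genes tested passed, 1.14% higher and 1.56% lower in the translocation tumours. The call ended without translocation tumour 1 or without Rosa26 tumour 3, 5 or 6 (edgeR adjusted p = 0.0629, 0.0884, 0.0582 and 0.077). It also ended without the 2 tumours rich in ribosomal sequence (edgeR adjusted p = 0.0527). In the female libraries alone the translocation tumours spanned 37.0 to 73.3 CPM against 25.99 and 26.1 CPM. These counts do not separate the normal Atf1 allele from the fused one, and whether reads of the Rosa26 transgene were counted under mouse Atf1 is not known.

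**Figure D1:**
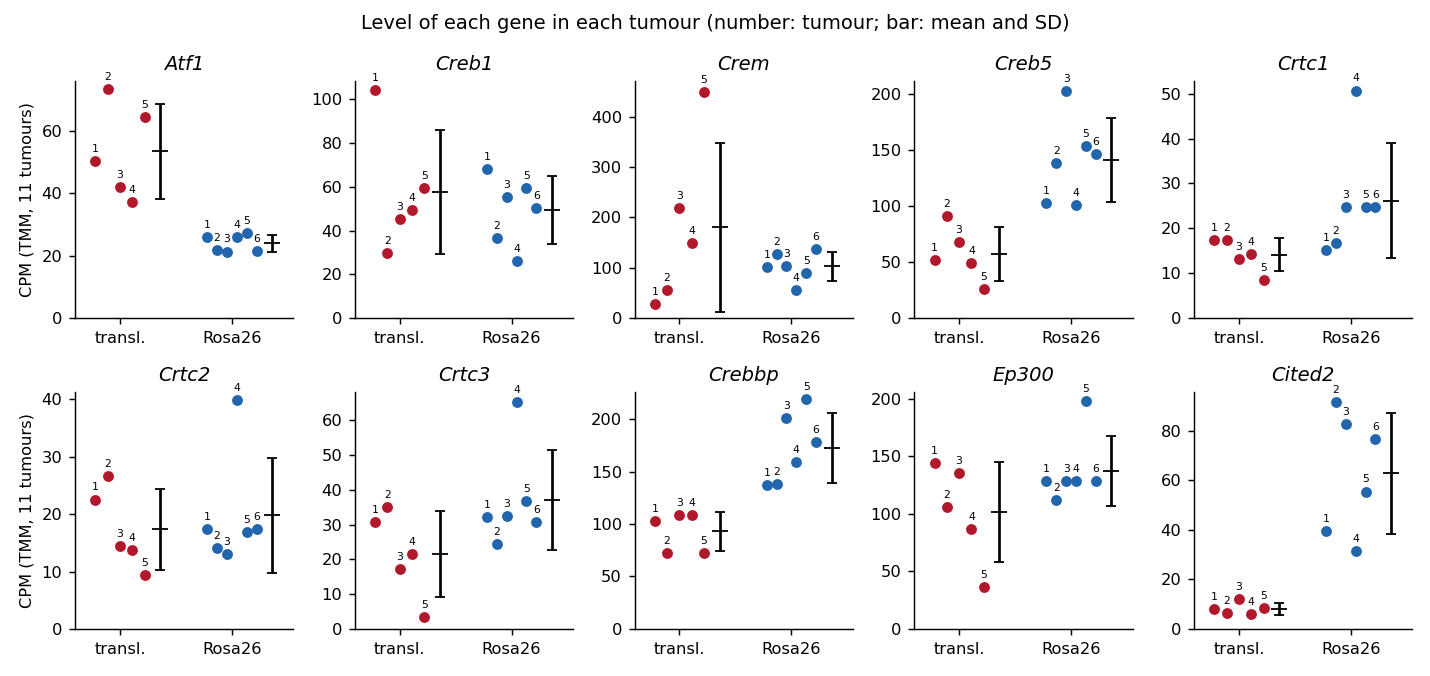
Level of each of the 10 genes in each tumour, as CPM scaled by TMM over 11 tumours on a linear axis; points are tumours with their number, and the bar beside each group is the mean and SD. Atf1 lies between 37.0 and 73.3 CPM in the translocation tumours and between 21.3 and 27.3 CPM in the Rosa26 tumours, and Cited2, Crebbp and Creb5 lie lower in every translocation tumour than in any Rosa26 tumour.

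Creb1, the founding cAMP-responsive activator (chromosome 1, 64532645 to 64604548), was 104, 29.7, 45.2, 49.2 and 59.6 CPM in translocation tumours 1 to 5. In Rosa26 tumours 1 to 6 it was 68.1, 36.6, 55.2, 26.3, 59.6 and 50.4 CPM. The groups overlapped over most of their range, and the log2 difference was 0.22 ± 0.34 (SE; adjusted p = 0.72, edgeR). Without translocation tumour 1, the highest library, it was -0.12.

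Crem, which encodes activators and the inducible repressor ICER from an internal promoter (chromosome 18, 3266048 to 3337748), was 27.6, 56.9, 218, 149 and 449 CPM in translocation tumours 1 to 5. In Rosa26 tumours 1 to 6 it was 102, 128, 104, 55.8, 90.6 and 137 CPM. The highest translocation tumour was 16.3 times the lowest, while the Rosa26 tumours spanned 2.45 times, so translocation tumours lay both above and below the Rosa26 range. The log2 fold change was 0.81 ± 0.57 (SE, edgeR adjusted p = 0.401), and 0.14 without translocation tumour 5. Counts per gene do not separate ICER from the longer forms.

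Creb5, a bZIP factor that binds the same element and can pair with JUN (chromosome 6, 53287270 to 53700376), was 52.3, 91.1, 68.5, 49.1 and 25.7 CPM in translocation tumours 1 to 5. In Rosa26 tumours 1 to 6 it was 103, 139, 203, 102, 154 and 147 CPM. The groups did not overlap, and translocation tumour 5 was the lowest library. The log2 fold change of -1.30 ± 0.32 (SE) narrowly missed the threshold (edgeR adjusted p = 0.0522). Creb5 passed in 6 of 22 alternative fits, among them DESeq2 (adjusted p = 0.0026) and limma voom (adjusted p = 0.00413), and also without translocation tumour 2 (edgeR adjusted p = 0.0411) or 5 (edgeR adjusted p = 0.0446). DESeq2 and limma voom called more genes in all, 12.8% of 20252 and 15.6% of 17021.

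Within CREB1, CREM and ATF1, shares of counts per kilobase of exon need no scaling between libraries. Atf1 made up 40.0% ± 20.7 of the trio in the translocation tumours (SD, n = 5) and 28.2% ± 8.05 in the Rosa26 tumours (SD, n = 6), with 73.6% in the muscle. Crem made up 49.7% ± 26.3 and 59.4% ± 8.47, and 20.2% in the muscle. In the translocation tumours Atf1 led in tumours 1 and 2, whereas Crem led in tumours 3, 4 and 5 and in all 6 Rosa26 tumours. Atf1 per kilobase was 2.17 to 11.1 times Creb1 in the translocation tumours and 1.71 to 4.46 times in the Rosa26 tumours.

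**Figure D2:**
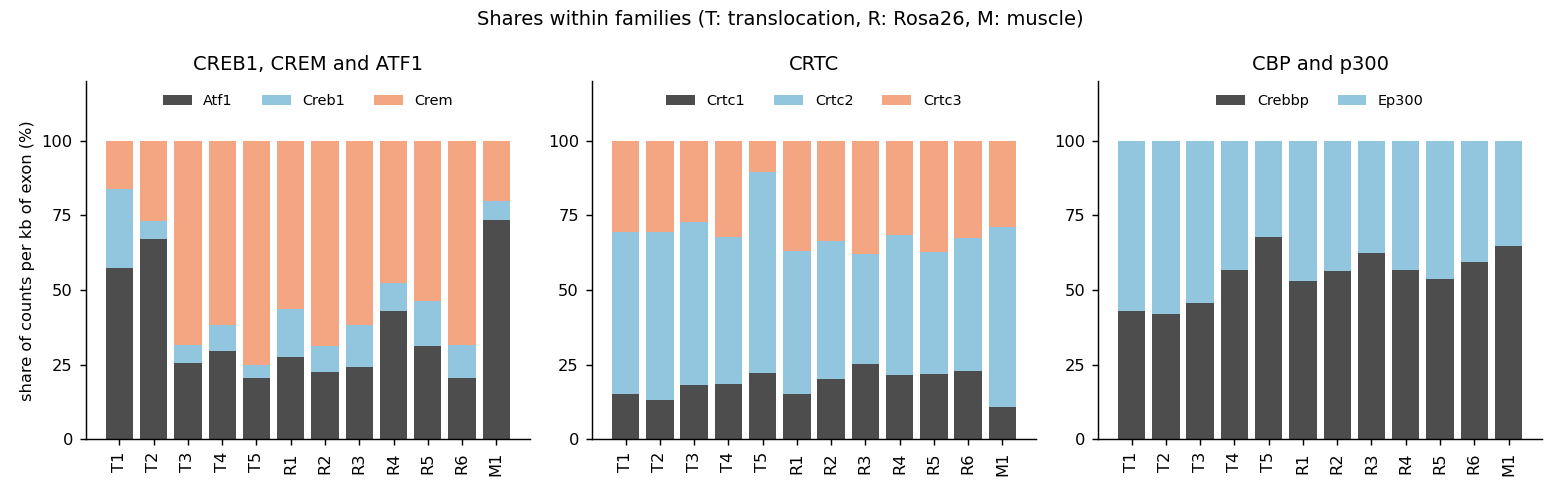
Share (%) of counts per kilobase of exon within each of 3 families, 1 stacked bar per library (T, translocation; R, Rosa26; M, muscle). Crem ranges from 16.3% to 75% in the translocation tumours and from 47.6% to 68.8% in the Rosa26 tumours, and Crtc2 is at 49.3% or more in every translocation tumour and at 48.0% or less in every Rosa26 tumour.

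The CRTC genes encode the cAMP- and calcium-responsive coactivators, and none of the 3 passed the edgeR test, 1 being under an unadjusted p of 0.05 (24.8% of all genes were); DESeq2 called 0 and limma voom 1. Crtc1 was 17.5, 17.3, 13.2, 14.3 and 8.50 CPM in translocation tumours 1 to 5 and 15.1, 16.8, 24.7, 50.7, 24.7 and 24.7 CPM in Rosa26 tumours 1 to 6. Rosa26 tumour 4 stood far above the others, and tumours 1 and 2 lay within the translocation range. The log2 fold change of Crtc1 was -0.88 ± 0.34 (SE, edgeR adjusted p = 0.141), and -0.56 without Rosa26 tumour 4. With sex as a covariate it was -1.20 (edgeR adjusted p = 0.0402).

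Crtc2, the form best known from hepatic gluconeogenesis, was 22.6, 26.7, 14.4, 13.8 and 9.37 CPM in the translocation tumours. In the Rosa26 tumours it was 17.5, 14.1, 13.0, 39.8, 16.8 and 17.4 CPM. Apart from Rosa26 tumour 4, the Rosa26 tumours lay within the wider range of the translocation tumours. The log2 difference was -0.19 ± 0.37 (SE; adjusted p = 0.783, edgeR), and 0.15 without that tumour. Crtc3 was 30.7, 35.1, 17.2, 21.6 and 3.50 CPM in the translocation tumours and 32.3, 24.5, 32.5, 65.2, 36.8 and 30.8 CPM in the Rosa26 tumours. Translocation tumour 5 held the lowest and Rosa26 tumour 4 the highest Crtc3 level. Its log2 fold change was -0.78 ± 0.47 (SE, edgeR adjusted p = 0.323), and -0.51 without translocation tumour 5. With sex as a covariate it was -1.62 (edgeR adjusted p = 0.0486).

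Rosa26 tumour 4 was thus highest for all 3 CRTC genes. It also held the most ribosomal sequence and fibroblast marker counts of its group, and the part of these in the CRTC levels was not tested. Scaling between libraries cancels in shares within the CRTC trio. Crtc2 made up 49.3% to 67.2% of the trio in the translocation tumours and 36.6% to 48.0% in the Rosa26 tumours, without overlap but by a narrow margin. Crtc3 made up 10.4% to 32.1% and 31.7% to 38.0%. The Crtc2 share also moves with the other genes of the trio. Log2 fold changes were -0.19 for Crtc2, -0.88 for Crtc1 and -0.78 for Crtc3. This share was 1 of several looked at.

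Crebbp encodes CBP (chromosome 16, 4081328 to 4213997). It was 103, 72.8, 108, 109 and 71.9 CPM in translocation tumours 1 to 5 and 138, 138, 202, 159, 219 and 178 CPM in Rosa26 tumours 1 to 6. Each Rosa26 tumour lay above each translocation tumour. The log2 fold change of -0.89 ± 0.23 (SE) did not pass (edgeR adjusted p = 0.0606), and it did with DESeq2 (adjusted p = 0.00139) and limma voom (adjusted p = 0.0121).

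Ep300 encodes p300, the paralogue of CBP (chromosome 15, 81585351 to 81652077). It was 144, 106, 135, 87.1 and 36.2 CPM in the translocation tumours and 128, 112, 129, 128, 198 and 128 CPM in the Rosa26 tumours. The groups overlapped, with Rosa26 tumour 5 highest and translocation tumour 5 lowest, and the log2 fold change was -0.43 ± 0.33 (SE, edgeR adjusted p = 0.441). Without translocation tumour 5 it was -0.22. Crebbp made up 42.0% to 67.7% of the pair per kilobase in the translocation tumours and 53.1% to 62.3% in the Rosa26 tumours.

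Cited2 lies on chromosome 10 (17723218 to 17725674, mm10, + strand; ENSMUSG00000039910). Its levels in translocation tumours 1 to 5 were 7.95, 6.43, 11.9, 5.96 and 8.39 CPM, from 74, 13, 269, 106 and 163 counts. In Rosa26 tumours 1 to 6 they were 39.5, 91.5, 82.6, 31.4, 55.5 and 76.6 CPM. The highest translocation tumour was below the lowest Rosa26 tumour, and the group means of 8.12 ± 2.33 CPM (SD, n = 5) and 62.9 ± 24.4 CPM (SD, n = 6) differed 7.74-fold. The log2 fold change of -2.94 ± 0.35 (SE) ranged from -3.12 to -2.50 over 22 alternative fits. It was -3.02 without the 2 tumours rich in ribosomal sequence. Rosa26 tumour 4, with the highest fibroblast marker share and 30% ribosomal sequence, had the lowest Cited2 level of its group. The part of either in the Cited2 levels was not tested. In the female libraries alone Cited2 was 5.96 to 11.9 CPM against 39.5 and 31.4 CPM. Cited2 was chosen for its difference between these libraries, so these fits and subsets give no independent support for it.

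Set against the proteins' binding partners at the RNA level, Cited2 per kilobase was 0.182, 0.205, 0.277, 0.172 and 0.435 times the sum of Crebbp and Ep300 in translocation tumours 1 to 5. In Rosa26 tumours 1 to 6 the ratio was 0.840, 2.06, 1.41, 0.618, 0.752 and 1.41. The muscle, at 0.847, lay within the Rosa26 range and above every translocation tumour. This ratio also rests on the gene chosen for its difference.

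Across the set, 7 members had a negative and 3 a positive log2 fold change, beside 7966 and 9055 of the 17021 genes tested. Cited2 is among the 7, and its sign was known when it was chosen. The groups did not overlap for 4 members (Atf1, Crebbp, Creb5 and Cited2), 3 of them other than Cited2, where 5.18% of all genes tested had groups that did not overlap.

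**Figure D3:**
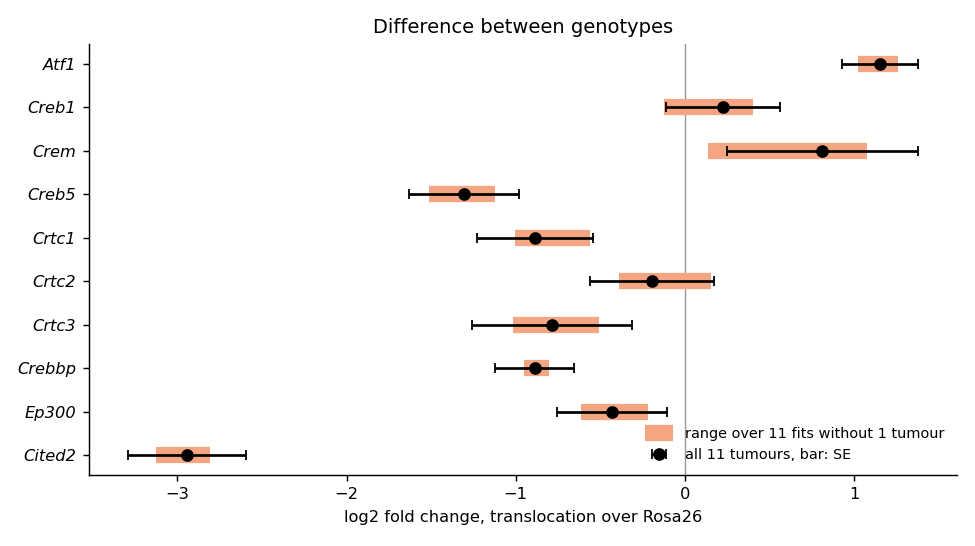
Log2 fold change of each gene, translocation over Rosa26 tumours, from edgeR on 11 tumours (point, with SE as the bar) and the range over 11 fits that leave out 1 tumour each (band). Atf1 stays between 1.024 and 1.26 and Cited2, which was chosen for its difference, between -3.12 and -2.81, while the bands of Creb1 and Crtc2 cross 0.

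Per kilobase of exon, levels of different genes can be set in order. In the translocation tumours the mean CPM per kilobase was 27.8 for Crem, 15.7 for Atf1, 6.44 for Ep300, 6.22 for Crebbp, 3.82 for Crtc2, 3.79 for Creb1, 2.99 for Cited2, 2.07 for Creb5, 1.98 for Crtc3 and 1.14 for Crtc1. Of the neighbours in this order, Atf1 and Ep300 alone had ranges that did not overlap. In the Rosa26 tumours the order was Cited2 (23.8), Crem (16.2), Crebbp (11.8), Ep300 (8.96), Atf1 (7.31), Creb5 (5.25), Crtc2 (4.49), Crtc3 (3.49), Creb1 (3.35) and Crtc1 (2.17), and all neighbours overlapped. Crtc1 was lowest in both. With the longest transcript as the length, 4 members in the translocation and 8 in the Rosa26 tumours took another rank.

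The muscle library gives a single reference level for normal tissue, with no spread of its own. On the TMM scale of all 12 libraries it held 95.8 CPM of Atf1, 36.3 of Creb1, 50.6 of Crem, 7.62 of Creb5, 11.52 of Crtc1, 23.3 of Crtc2, 26.9 of Crtc3, 226 of Crebbp, 129 of Ep300 and 53.6 of Cited2. A member was counted when every tumour of a group lay on the same side of the muscle and the group median differed from it at least 2-fold. In the translocation tumours this held for 1 member above the muscle (Creb5, 6.13-fold) and 3 below it (Atf1, 2.13-fold; Crebbp, 2.45-fold; Cited2, 7.55-fold). Of all genes at 1 CPM or more in the muscle or in the group median, 23.1% were counted above and 25.6% below. In the Rosa26 tumours it held for Creb5 above (17.4-fold) and Atf1 below (4.34-fold), against 33.7% and 29.2% of all genes. Cited2 lay on both sides of the muscle in the Rosa26 tumours, with 3 of 6 above it. With 10 members, nothing is read from counts of 1 and 3 beside such shares.

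These muscle comparisons moved with the scaling. Total-count scaling placed the median gene 1.10 and 1.15 log2 units above the muscle in the translocation and Rosa26 tumours, against -0.15 and -0.13 under TMM. Atf1 in the translocation tumours lay below the muscle under TMM and above it in 5 of 5 tumours under total counts, and the median of Crebbp turned in the same way. So did the translocation medians of Ep300, Crtc2 and Crtc3, and the Rosa26 medians of Crebbp, Ep300 and Crtc2. Cited2 in the Rosa26 tumours was above the muscle in 6 of 6 tumours under total counts. The Atf1 median of the Rosa26 tumours stayed below the muscle under all 4 scalings tried. Cited2 lay below the muscle in the translocation tumours and Creb5 above it in both groups under each of them as well.

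**Figure D4:**
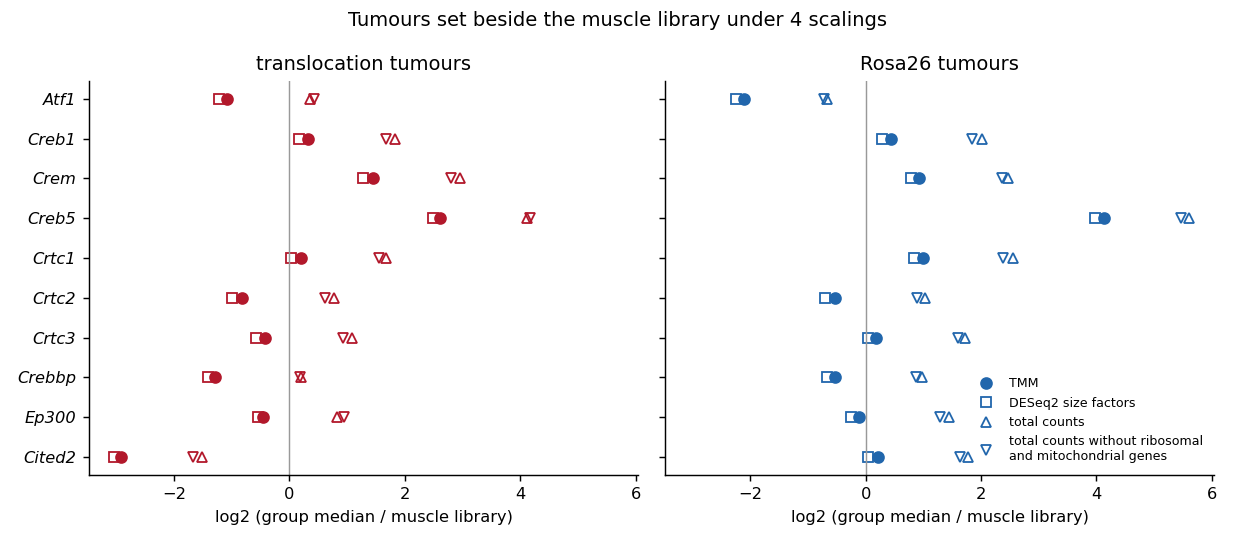
Log2 ratio of the group median to the single muscle library for each gene, translocation tumours on the left and Rosa26 tumours on the right, under 4 scalings (symbols). Creb5 lies right of 0 in both panels and Cited2 left of 0 in the translocation panel under every scaling. Atf1, Crebbp, Ep300, Crtc2 and Crtc3 change side in the translocation panel, and Crebbp, Ep300 and Crtc2 in the Rosa26 panel.

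Other genes of the pathway were taken as 6 lists of gene symbols. The lists were chosen with earlier results of these data known, so their counts and medians are a description only. Among 18 further CREB/ATF bZIP factors tested, 1 fell and none rose (DESeq2 called 3 lower and 1 higher), with a median log2 fold change of -0.04, beside 0.07 over all genes tested. The 1 that fell was Creb3l2, an endoplasmic reticulum bZIP factor of secretory cells, at 61.2 to 111 CPM in the translocation and 94.0 to 357 CPM in the Rosa26 tumours (log2 fold change -1.81 ± 0.35, SE, edgeR adjusted p = 0.0274). The groups overlapped only through Rosa26 tumour 1, and the call held in 7 of 11 fits without 1 tumour. Atf4, the amino acid response factor and the most abundant gene of the list after Creb3l2, had 0.70 ± 0.26 (SE, edgeR adjusted p = 0.131). Limma voom called 2 of the list lower and 1 higher. Over all genes edgeR called 1.56% lower and 1.14% higher, DESeq2 6.55% and 6.21%, and limma voom 8.22% and 7.36%.

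Among the 31 kinases and phosphatases that act on CREB proteins and CRTCs, none passed edgeR's test in either direction (median -0.03), with 10 under an unadjusted p of 0.05, while DESeq2 and limma voom called 5 each. These counts are near the shares over all genes given above. The most abundant, the phosphatase subunit Ppp1cb and the protein kinase A regulatory subunit Prkar1a, had log2 fold changes of 0.58 ± 0.37 and 0.25 ± 0.29 (SE, edgeR adjusted p = 0.351 and 0.629). Of 15 tested genes of cAMP production and its receptors, 1 fell and the median was -0.40. That gene was Adrb1, the beta-1 adrenoceptor, at 0 to 0.562 CPM against 1.41 to 3.54 CPM (log2 fold change -2.93 ± 0.66, SE, edgeR adjusted p = 0.0412), and its call held in 4 of 11 fits without 1 tumour. Adrb1 lay near the floor, with 0 to 10 counts in the translocation and 9 to 87 in the Rosa26 tumours. Gnas, which encodes the stimulatory G protein subunit, was 313 to 1410 CPM against 1031 to 5336 CPM and did not pass (-1.52 ± 0.54, SE, edgeR adjusted p = 0.119). Of the cAMP production list DESeq2 called 2 lower and 0 higher, and limma voom 3 and 0. Over all genes edgeR called 1.56% lower, DESeq2 6.55% and limma voom 8.22%.

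Of 32 tested cAMP and CREB target genes, 4 fell and none rose, with a median of -0.64. EdgeR called 1.56% of all genes lower and 1.14% higher. In the list 20 had a negative and 12 a positive log2 fold change, beside 7966 and 9055 of all genes tested. With earlier results known when the list was chosen, this lean is a description only. Inhba, the activin A subunit, was 9.02, 0.99, 22.04, 4.05 and 2.21 CPM in translocation tumours 1 to 5 and 71.2 to 249 CPM in the Rosa26 tumours. The groups lay far apart, and Inhba alone of the 4 kept its call in all 11 fits without 1 tumour (log2 fold change -4.41 ± 0.73, SE, edgeR adjusted p = 0.0141). Bcl2, the survival factor, was 0.721 to 10.3 CPM against 18.3 to 40.4 CPM (-2.44 ± 0.53, SE, edgeR adjusted p = 0.0363). Nr4a3, an orphan nuclear receptor induced by cAMP, was 3.98 to 82.4 CPM against 96.2 to 419 CPM (-3.39 ± 0.74, SE, edgeR adjusted p = 0.0379). Pcsk1, a prohormone convertase, was 8.70 to 136 CPM against 63.1 to 1632 CPM, with overlap (-3.88 ± 0.93, SE, edgeR adjusted p = 0.0492). Bcl2, Nr4a3 and Pcsk1 kept their calls in 4, 2 and 3 of the 11 fits. DESeq2 called 8 of the list lower and 1 higher, and limma voom 11 lower and 0 higher. Over all genes DESeq2 called 6.55% lower and 6.21% higher, and limma voom 8.22% and 7.36%. The fibroblast marker share had a median of 0.338% in the translocation and 2.12% in the Rosa26 tumours, with overlapping ranges, and its part in these levels was not tested.

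Of 22 tested CITED family genes and other partners of CBP and p300, 1 rose and none fell (median -0.21). The AP-2 factor Tfap2c was 28.2, 43.6, 0.133, 142 and 124 CPM in translocation tumours 1 to 5 and never exceeded 1.96 CPM in Rosa26 tumours. Translocation tumour 3 lay within the Rosa26 range while the other translocation tumours were far above it (log2 fold change 6.65 ± 1.46, SE, edgeR adjusted p = 0.0381; called in 4 of 11 fits without 1 tumour). By limma voom 0 genes of this list were higher and 3 lower, so the Tfap2c call was lost there. DESeq2 called 1 of the list higher and 1 lower. Over all genes edgeR called 1.14% higher and 1.56% lower, DESeq2 6.21% and 6.55%, and limma voom 7.36% and 8.22%. Cited1, another CITED coactivator, had a log2 fold change of -0.10 (edgeR adjusted p = 0.965). Hif1a, the factor that competes with CITED2, was 48.5 to 269 CPM against 79.7 to 157 CPM and did not pass (0.39 ± 0.40, SE, edgeR adjusted p = 0.581).

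Of 17 HIF and hypoxia target genes, 2 rose and none fell, with a median of 1.05. EdgeR called 1.14% of all genes higher and 1.56% lower. In the list 13 had a positive and 4 a negative log2 fold change, beside 9055 and 7966 of all genes tested. This list too was chosen with earlier results known, and its lean is a description only. Ddit4, an inhibitor of mTORC1, was 311, 189, 68.3, 99.2 and 109 CPM in translocation tumours 1 to 5 and 13.7 to 57.5 CPM in the Rosa26 tumours, without overlap (2.42 ± 0.46, SE, edgeR adjusted p = 0.0237). Ndrg1, a hypoxia-induced stress protein, was 168 to 414 CPM against 61.6 to 129 CPM, also without overlap (1.37 ± 0.31, SE, edgeR adjusted p = 0.0429). The calls held in 7 and 4 of 11 fits without 1 tumour. DESeq2 and limma voom each called 5 of the list higher and 0 lower, where they called 6.21% and 7.36% of all genes higher. Ewsr1, the other partner of the fusion, did not pass, and its log2 difference was 0.09 ± 0.27 (SE; adjusted p = 0.869, edgeR).

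**Figure D5:**
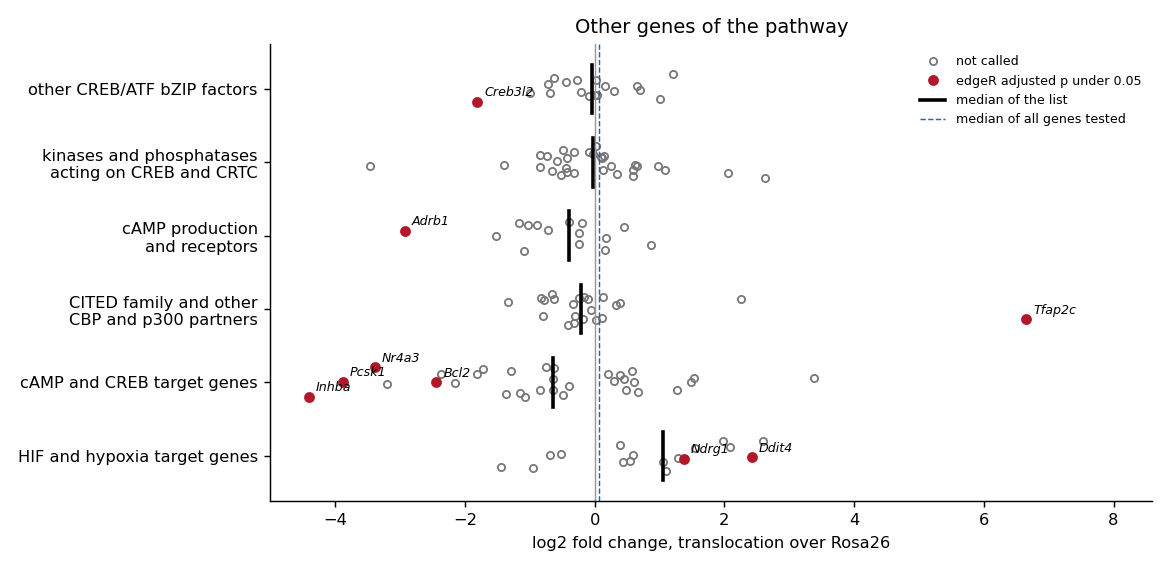
Log2 fold change, translocation over Rosa26 tumours, of every tested gene in 6 lists (open points, not called; filled and named, edgeR adjusted p under 0.05), with each list's median as a black bar and the median of all genes as a dashed line. The target gene list has its median at -0.64 and 4 called genes on the left, and the hypoxia list has its median at 1.05 and 2 called genes on the right. The lists were chosen with earlier results of these data known.

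With the genotype means removed, the genes whose log2 CPM went most closely with Atf1 over the 11 tumours, among 12288 genes ranked, were Luzp2 (Pearson r = 0.95), Ccdc85c (0.926), Gm42047 (0.926), Rpa1 (0.922) and Rp9 (0.901). For Cited2 they were Pcnx4 (0.944), Daam1 (0.943), Tpsg1 (0.942), Swsap1 (0.906) and Napb (0.905). Tpsg1 averaged 0.0177 CPM in the translocation and 15.5 CPM in the Rosa26 tumours, and Luzp2 averaged 16.6 and 0.831 CPM. For Tpsg1 and Luzp2, r therefore says little about the group in which the gene was low. The r values share libraries and depth, and with so many genes and 11 tumours they are a description only. None of these 10 genes is a member.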

How the data were processed

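The authors deposited raw counts in whole numbers for 55536 Ensembl genes. Per the submitters' processing notes, which give no roles, the tools included STAR 2.7.5a, cutadapt, RSEM, featureCounts and DESeq2, with build mm10. Per the labels' protocols the libraries were stranded and depleted of ribosomal RNA. The strand setting, the annotation and the handling of multi-mapping are unknown here. Reads may therefore be shared with overlapping genes (Crem, Crtc3, Crebbp, Ep300 and Creb5 have annotated ones). Symbols, positions and lengths came from GENCODE M21.

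Groups followed the genotype labels. The 11 tumours were fitted in edgeR 4.0.16 (R 4.3.3) with TMM, filterByExpr at minimum count 10, robust quasi-likelihood tests and adjusted p (Benjamini-Hochberg over 17021 genes) below 0.05. The SE given with edgeR is the absolute log2 fold change divided by the square root of the quasi-likelihood F statistic. A test on simulated counts preceded the fit. The muscle was described without a test. Likeness used log2 CPM with a prior count of 2, among genes with a mean of at least 5 CPM. Alternatives used DESeq2 1.42.0 and limma 3.58.1 voom, other filters, summed libraries, a sex covariate and left-out tumours. Members and lists were chosen with earlier results of these data known. Named genes were all members, up to 4 called genes per list by smallest adjusted p (where fewer than 2 were called, also the 2 most abundant), and 5 genes most like Atf1 and Cited2. Cited1 was added after its value was seen. Among the genes so named, 1 is not reported here.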

Additional observations from a re-analysis of the deposited data

Results flagged for a closer look

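Of 20 groups examined (10 genes in each tumour genotype), 4 held a library far from the others by Dixon's test at 5%, which chance flags in about 1 in 20 groups. Rosa26 tumour 4 was the highest of its group for Crtc1 (50.7 CPM, next 24.7 CPM), Crtc2 (39.8 CPM, next 17.5 CPM) and Crtc3 (65.2 CPM, next 36.8 CPM). This library held 30% ribosomal sequence, and the 3 flags share it. Rosa26 tumour 5 was the highest for Ep300, at 198 CPM with 129 CPM next.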

How the results depend on the processing

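The number of genes called between genotypes was 460, and it was 2584 by the DESeq2 Wald test, 2651 by limma voom, 2534 with sex as a covariate, 815 with translocation tumours 2 and 5 summed, 91 with Rosa26 tumours 5 and 6 summed, 170 without tumours over 20% ribosomal sequence, and 63 to 744 with each tumour left out in turn. The pathway lists held 9 calls, and 1 to 11 with each tumour left out. Against the muscle, 6 member and group pairs passed the 2-fold rule under TMM, 13 under total counts and 12 under total counts without ribosomal and mitochondrial genes. Crem turned to -0.27 by voom. Crtc2 turned to 0.013 by voom and to 0.097 when Rosa26 tumour 4 and translocation tumours 2 and 5 were left out (a choice made after seeing the data), and ran from -0.39 to 0.15 over the left-out tumours. Creb1 ran from -0.12 to 0.40. The cause was not tested. Atf1 kept its sign in all 22 alternatives and its call in 15 of them; beside those above, it was lost with no filter (edgeR adjusted p = 0.0618) and with Rosa26 tumours 5 and 6 summed (edgeR adjusted p = 0.064). Crtc1 passed by voom (adjusted p = 0.0498). No paired analysis was possible because replicate numbers follow sample order and pair nothing. The lowest depth, 2.96 M in translocation tumour 2, left 13 counts of Cited2 there.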
